A study of Mus musculus with 25 samples.

Results

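Fecal bacterial communities of mice labelled OVX+FMT and OVX+GEX were set side by side, the first having received a fecal microbiota transplant and the second GEX itself. The 10 libraries were all those that the labels place in these groups, 5 in each, out of 25 in the series. All 25 libraries came from feces of C57BL/6 mice, with 5 each also in the groups Sham, OVX and OVX+PBS. OVX is the usual abbreviation of ovariectomy, removal of the ovaries, a standard way to produce estrogen deficiency and bone loss in rodents. Both treated groups carry it, as do OVX and OVX+PBS, while Sham stands for the operation without removal. PBS is a phosphate-buffered saline, and GEX is an abbreviation that no label explains. The series title speaks of a decoction medicine, osteoporosis and the gut-derived metabolite TMAO. The labels give no age, dose, duration, cage or transplant donor, and their sex field says male, which ovariectomy contradicts, so no sex is stated. Whether transplant and direct treatment differ by more than the material given, such as a vehicle or the time of the experiment, cannot be told apart here.

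In a fecal transplant, live stool bacteria of a donor are given to a recipient, whose own bacteria can persist, be displaced or mix with those of the donor. A compound given directly can instead favour or suppress bacteria already present. Mouse stool is dominated by Firmicutes, with lactobacilli of the small intestine and clostridia that ferment fibre to acetate and butyrate, and by Bacteroidetes, mostly Muribaculaceae such as Duncaniella, which break down plant and host glycans. Akkermansia, of the Verrucomicrobia, lives on intestinal mucin. Some gut bacteria cut choline and carnitine to trimethylamine, which the liver oxidises to TMAO.

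The bacteria were read as full-length 16S rRNA gene amplicons, and each distinct sequence after error removal was counted as an amplicon sequence variant (ASV). Totals were 22403, 10546, 10067, 9484 and 19736 counts in OVX+FMT libraries 1 to 5, and 10637, 9977, 8882, 8498 and 10771 in OVX+GEX libraries 1 to 5. A count of 0 therefore allows a share of up to 0.0134% in the deepest and 0.0353% in the shallowest of these libraries, taking 3 counts as the floor. The 10 libraries held 929 of the 1555 ASVs of the table and 96 of its 110 genera. Shares are shares of a library's counts, so that 1 taxon can be higher only where others are lower, and fewer cells of a taxon cannot be told apart from more of the rest. Names of genera and species are those of relatives in a database that is not given. A single genome can carry several 16S copies, so ASVs of 1 species need not be independent.

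Most of the community was common to both treatments. Of the ASVs, 355 were found in both groups, 298 in OVX+FMT only and 276 in OVX+GEX only. The common ASVs were 54.4% of the 653 ASVs found in OVX+FMT and 56.3% of the 631 found in OVX+GEX, yet they held 92.1% ± 4.88 and 90.2% ± 4.27 of the counts (SD, n = 5). Of the ASVs found in 1 group only, 230 of 298 and 227 of 276 were seen in a single library. With every library brought to 8498 counts, the expected numbers were 351, 288 and 278. Of the genera, 76 were found in both groups, which is 85.4% of the 89 in OVX+FMT and 91.6% of the 83 in OVX+GEX. The 29 genera present in all 10 libraries, among them Ligilactobacillus, Duncaniella, Ruminococcus, Akkermansia, Adlercreutzia, Blautia and Roseburia, held 93.5% ± 3.30 of the counts in OVX+FMT and 91.9% ± 3.67 in OVX+GEX.

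No genus was special to either treatment when special was taken to mean presence in at least 3 of 5 libraries of one group and in 0 of 5 of the other. The 13 genera found in OVX+FMT only were seen in 1 library each, apart from Coprococcus, a butyrate producer with 11 counts in libraries 1 and 3. Library 4 alone supplied 7 of them, among them Anaerotaenia with 30 counts and [Bacteroides] with 13. The 7 genera found in OVX+GEX only were also seen in 1 library each, apart from Faecalicatena, with 25 counts in libraries 3 and 4, and Ornithinibacillus, with 6 counts in libraries 2 and 3. OVX+GEX library 4 alone held Escherichia, with 31 counts, and Enterococcus, with 5.

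At the level of single ASVs, 90 were found in at least 3 of 5 libraries of both groups. They made up 56.3% of the 160 ASVs that reached 3 libraries in OVX+FMT and 65.2% of the 138 that did so in OVX+GEX. Their share of the counts was 84.0%, 81.0%, 84.0%, 56.4% and 79.3% in OVX+FMT libraries 1 to 5 and 69.2%, 59.8%, 77.9%, 79.9% and 78.3% in OVX+GEX libraries 1 to 5. OVX+FMT library 4 was the lowest of the 10 and OVX+GEX library 2 the next lowest. The 90 ASVs fell in 40 genera, with 12 in Acetivibrio, 10 in Duncaniella and 9 in Ligilactobacillus. All 90 were also found in OVX, 87 in Sham and 86 in OVX+PBS, so that none of them was limited to the treated mice. The 30 ASVs found in all 10 libraries came from 12 genera, 8 from Duncaniella, 7 from Ligilactobacillus and 3 from Gluceribacter, and held 62.5% ± 13.1 of the counts in OVX+FMT and 58.8% ± 13.5 in OVX+GEX.

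**Figure D1:**
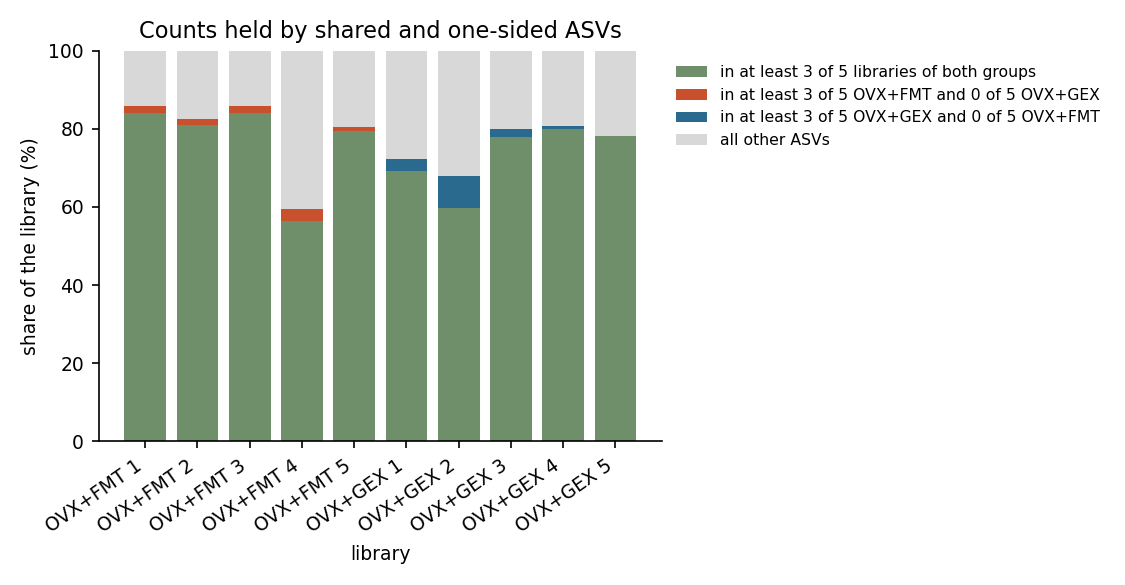
Share of each library's counts (%, vertical axis) held by ASVs found in at least 3 of 5 libraries of both groups (green), by ASVs special to OVX+FMT (orange) or to OVX+GEX (blue), and by all others (grey), with 1 bar per library. The green part is between 56.4% and 84.0% of a library, and the largest coloured cap is that of OVX+GEX library 2, at 8.04%.

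ASVs shared by both treated groups and absent from the untreated and PBS-treated operated mice were few. Of the ASVs found in at least 1 library of both treated groups, 49 were found in 0 of the 10 OVX and OVX+PBS libraries. With at least 2 libraries required in each treated group, 3 ASVs were left, and with at least 3 libraries, 0. These 3 were chosen after their values were seen. ASV_139, named Monoglobus pectinilyticus after a pectin-degrading bacterium, had 22, 20, 0, 0 and 0 counts in OVX+FMT and 0, 195, 14, 6 and 0 in OVX+GEX, and was found nowhere else. ASV_453, named Lawsonibacter asaccharolyticus, had 8, 6, 0, 9 and 0 counts against 5, 0, 0, 16 and 0, with 5 more in 1 Sham library. ASV_719, named Faecalimonas umbilicata, had 0, 5, 0, 3 and 0 counts against 0, 3, 9, 0 and 0.

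Community-wide measures overlapped between the treatments. The expected number of ASVs in 8498 counts was 265.7, 230.3, 220.5, 298.9 and 200.9 in OVX+FMT and 304.1, 263.6, 197.0, 186 and 201.9 in OVX+GEX. The means were 243 ± 39.0 and 231 ± 51.1, a difference of 12.8 ASVs (exact two-sided permutation p = 0.651, adjusted p = 0.868 over 4 measures). The Shannon index, in natural-log units, was 4.27 ± 0.389 and 4.27 ± 0.374 (exact permutation p = 1.0). Firmicutes over Bacteroidetes, as a log2 ratio, came to 1.63 ± 0.93 in OVX+FMT and 2.76 ± 2.08 in OVX+GEX (exact permutation p = 0.325, adjusted p = 0.868).

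Group membership accounted for 0.0978 of the variance (R2) in Bray-Curtis distance, a measure of unlike composition that runs from 0 to 1 (exact permutation p = 0.587, adjusted p = 0.868 over 4 measures). The mean distance was 0.490 between an OVX+FMT and an OVX+GEX library, against 0.450 within OVX+FMT and 0.537 within OVX+GEX. On average, libraries of the treatments were thus no farther from each other than OVX+GEX libraries were among themselves. The mean distances to OVX were 0.461 from OVX+FMT and 0.505 from OVX+GEX, and those to Sham 0.534 and 0.569. The nearest neighbour of a treated library was often of another group. OVX+FMT library 5 and OVX+GEX library 5 were each other's nearest among all 25, at 0.281. OVX+FMT library 1 was nearest to OVX library 5, at 0.266, while OVX+FMT libraries 2 and 3 were nearest to OVX+FMT library 1. OVX+FMT library 4 stood apart from its group, at a mean distance of 0.593 to it, and was nearest to Sham library 2, at 0.458. OVX+GEX library 2 stood similarly apart, at 0.603 from its own group, and was nearest to Sham library 3, at 0.481.

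The groups overlapped in each of the 4 phyla that averaged 1% or more. Bacteroidetes held 32.2%, 16.4%, 25.2%, 10.8% and 38.1% of OVX+FMT libraries 1 to 5 and 28.6%, 1.93%, 6.60%, 11.0% and 42.3% of OVX+GEX libraries 1 to 5. The OVX+GEX libraries thus held both the lowest and the highest value. The means were 24.6% ± 11.2 and 18.1% ± 16.9 (exact permutation p = 0.484). Firmicutes held 69.4% ± 9.24 and 77.1% ± 16.5 (exact permutation p = 0.373), Verrucomicrobia 4.26% ± 3.14 and 2.33% ± 1.22 (exact permutation p = 0.246), and Actinobacteria 1.26% ± 0.428 and 0.991% ± 0.533 (exact permutation p = 0.381). Each adjusted p was 0.484 over these 4 phyla.

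Ligilactobacillus, a lactic acid bacterium of the rodent gut, was the most abundant genus over the 10 libraries. It held 30.2%, 27.6%, 22.8%, 10.2% and 33.5% of the counts in OVX+FMT and 13.7%, 19.97%, 40.8%, 45.7% and 25.8% in OVX+GEX. The groups overlapped, with means of 24.9% ± 9.07 and 29.2% ± 13.6 (log2 fold change -0.11, SE 0.55, edgeR adjusted p = 0.944). The sign of this difference held in 13 of 19 alternatives. It turned, for example, under TMMwsp scaling, with only the 10 libraries and without OVX+FMT library 4. Duncaniella was next, at 30.4%, 14.8%, 23.4%, 9.53% and 35.1% in OVX+FMT and 25.2%, 1.87%, 6.23%, 9.64% and 39.6% in OVX+GEX. Its means were 22.6% ± 10.6 and 16.5% ± 15.6 (log2 fold change 0.52, SE 0.69, edgeR adjusted p = 0.885).

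The fibre-degrading clostridia Ruminococcus, Acetivibrio and Anaerobacterium were at like levels. Ruminococcus held 7.23% ± 4.08 in OVX+FMT and 6.09% ± 5.09 in OVX+GEX. Acetivibrio held 5.36% ± 2.27 and 6.61% ± 6.38, the latter with 18.001% in OVX+GEX library 2 and at most 4.35% in the others of that group. Anaerobacterium held 4.87% ± 1.15 and 4.61% ± 2.49, and Gluceribacter 3.85% ± 2.39 and 3.48% ± 1.77. Akkermansia, a single ASV named Akkermansia muciniphila, was at 1.29%, 4.82%, 8.34%, 5.85% and 0.968% in OVX+FMT and 3.89%, 1.27%, 3.33%, 1.93% and 1.22% in OVX+GEX. OVX+FMT held both the lowest and the 3 highest of these values (log2 fold change 0.81, SE 0.60, edgeR adjusted p = 0.568).

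**Figure D2:**
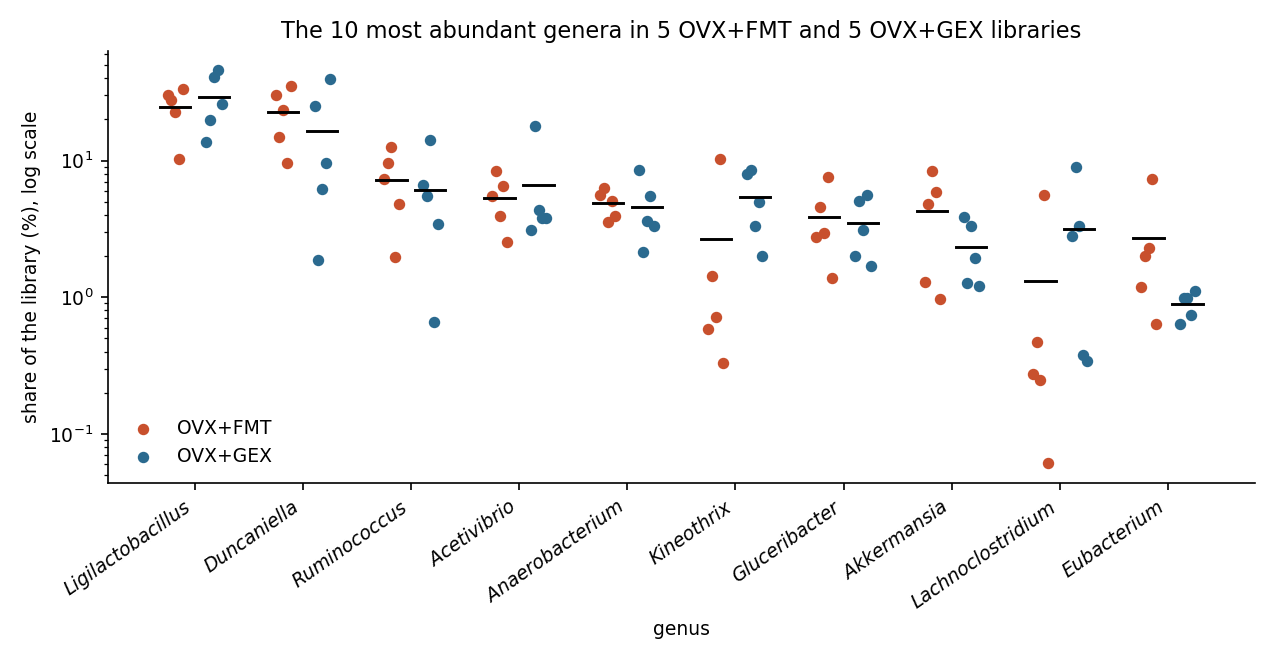
Share of the library's counts (%, log scale) of the 10 genera with the highest mean share, with 1 point per library, OVX+FMT in orange, OVX+GEX in blue and the group mean as a bar. The groups overlap for every genus, and OVX+FMT library 4 is the top orange point for Kineothrix, Lachnoclostridium and Eubacterium, at 10.3%, 5.56% and 7.36%.

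Butyrate-forming and related clostridia made up the rest of the 10 most abundant genera, and their OVX+FMT means rested largely on library 4. Kineothrix, a butyrate producer, was at 0.589%, 1.43%, 0.715%, 10.3% and 0.329% in OVX+FMT and 8.01%, 8.58%, 3.34%, 4.99% and 1.99% in OVX+GEX. The means were 2.67% ± 4.28 and 5.38% ± 2.87 (log2 fold change -1.28, SE 0.73, edgeR adjusted p = 0.425). Lachnoclostridium was at 0.272%, 0.474%, 0.248%, 5.56% and 0.0608% against 2.81%, 9.001%, 3.33%, 0.377% and 0.344% (log2 fold change -1.59, SE 1.00, edgeR adjusted p = 0.523). In both genera 4 of 5 OVX+FMT libraries were below all or most OVX+GEX libraries, and library 4 was among the highest of the 10. Eubacterium went the other way, at 1.19%, 2.01%, 2.30%, 7.36% and 0.638% against 0.639%, 0.992%, 0.980%, 0.741% and 1.11% (log2 fold change 1.29, SE 0.57, edgeR adjusted p = 0.281).

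No genus passed the threshold between the treatments. Of the 81 genera tested with edgeR's quasi-likelihood test, 0 (0.0%) had an adjusted p under 0.05 and 11 (13.6%) had an unadjusted p under 0.05, 6 higher in OVX+FMT (7.41%) and 5 higher in OVX+GEX (6.17%). Of the 6, 2 (Bifidobacterium and [Bacteroides]) passed the filter on low counts only through OVX+FMT. DESeq2 and limma called 0 as well, with 8 and 9 genera at an unadjusted p under 0.05. The smallest adjusted p was 0.281, and in 0 of 81 genera (0.0%) did the groups not overlap. Without OVX+FMT library 4, 3 genera passed, all higher in OVX+GEX: Kineothrix with an edgeR adjusted p of 0.0097, Lachnoclostridium with 0.029 and Marvinbryantia with 0.0015. Leaving out any other library gave 0.

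Of the genera with an unadjusted p under 0.05 that were higher in OVX+FMT, Lactobacillus and Bifidobacterium are lactate- and acetate-forming bacteria widely used as probiotics. Lactobacillus had 110, 28, 104, 7 and 89 counts in OVX+FMT and 0, 3, 10, 14 and 4 in OVX+GEX, and its share was 0.463% ± 0.359 against 0.0689% ± 0.0677. The groups overlapped through OVX+FMT library 4 (log2 fold change 2.78, SE 1.01, edgeR adjusted p = 0.281). Its mean share was 0.721% in OVX+PBS and 0.550% in OVX, both above the OVX+FMT mean as well as the OVX+GEX mean. Bifidobacterium had 59, 19, 66, 0 and 46 counts in OVX+FMT and 0, 0, 0, 0 and 5 in OVX+GEX. Having passed the filter only through OVX+FMT, the group where it was high, it is described here with no test. It was at 0 in all OVX and OVX+PBS libraries and at a mean of 0.00345% in Sham.

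Oscillibacter, an anaerobe that forms valerate, was at 1.05%, 1.53%, 1.69%, 1.01% and 2.41% in OVX+FMT and 1.23%, 0.341%, 1.68%, 0.165% and 0.297% in OVX+GEX. In 3 of 5 OVX+GEX libraries it was below every OVX+FMT library (log2 fold change 1.49, SE 0.62, edgeR adjusted p = 0.281). Besides Eubacterium, the remaining genera on this side were Anaerotaenia and [Bacteroides]. Among the treated libraries they were found in OVX+FMT library 4 alone, at 0.316% and 0.137%. Outside the treated groups Anaerotaenia was found in 6 libraries and [Bacteroides] in 4.

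On the OVX+GEX side, Anaerostipes, which turns lactate and acetate into butyrate, was at 2.65%, 0.251%, 0.405%, 0.918% and 1.92% in OVX+GEX and 0.0357%, 0%, 0.735%, 0.0949% and 0.375% in OVX+FMT. The groups overlapped (log2 fold change -2.20, SE 0.89, edgeR adjusted p = 0.281). Marvinbryantia, an acetogen, was found in 4 of 5 OVX+GEX libraries, at 0.160% to 0.455%, and in OVX+FMT library 4 alone, at 0.211%. Shigella, whose 16S gene is nearly that of Escherichia, was at 4.93% in OVX+GEX library 4, or 419 of 8498 counts (Wilson 95% interval 4.49% to 5.41%, counting error only), and at no more than 0.132% in any other of the 10 libraries. Without that library its log2 fold change turned from -4.91 to 0.58. Faecalicatena was at 0.0676% and 0.224% in OVX+GEX libraries 3 and 4 and at 0 in the rest of the 10. Without library 4 its mean lay below the floor of 3 counts per library, so no bound on a fold is given. It was also found in 9 libraries outside the treated groups. Ornithinibacillus was at 0.0301% and 0.0338% in OVX+GEX libraries 2 and 3.

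ASVs found on one side only held a small part of the counts. Of the 301 ASVs found in at least 3 of the 10 libraries, 18 (5.98%) were special to OVX+FMT, being in at least 3 of its 5 libraries and in 0 of 5 OVX+GEX libraries, and 12 (3.99%) were special to OVX+GEX by the same rule. The 18 fell in 12 genera, with 5 in Anaerobacterium and 3 in Eubacterium, and held 1.77%, 1.38%, 1.87%, 3.15% and 1.17% of OVX+FMT libraries 1 to 5. The 12 fell in 6 genera, with 6 in Lachnoclostridium, 2 in Acetivibrio and 1 each in Ihubacter, Kineothrix, Schaedlerella and Solibaculum, and held 3.06%, 8.04%, 2.08%, 0.99% and 0.0371% of OVX+GEX libraries 1 to 5. OVX+GEX libraries 4 and 5 thus held little of what set their group apart by this rule. Of the 301, 2 (0.664%) were found in 5 of 5 libraries of one group and 0 of 5 of the other, ASV_81 and ASV_54. For this pattern of presence Fisher's exact test always gives p = 0.00794, the smallest it can give here. The p therefore restates the rule by which the 2 were picked. The adjusted p was 1.0 over the 301.

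ASV_81, named Oscillibacter valericigenes, was the one ASV special to OVX+FMT that all 5 of its libraries held. It had 73, 49, 31, 27 and 169 counts in OVX+FMT and 0 in each OVX+GEX library, a share of 0.448% ± 0.239. Against a floor of 3 counts per library it was at least 14.4-fold higher in OVX+FMT (edgeR adjusted p = 0.0831). It was also found in 3 OVX+PBS and 2 OVX libraries, and in 0 Sham libraries.

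Other ASVs special to OVX+FMT were patchier. ASV_67, named Eubacterium xylanophilum after a xylan-fermenting bacterium, had 16, 25, 0, 153 and 0 counts, at least 12.4-fold higher, or 2.48-fold without library 4 (edgeR adjusted p = 0.0996), and was in 5 of 5 Sham libraries. ASV_77 and ASV_144, also of Eubacterium, had 57, 0, 26, 50 and 0 counts and 26, 0, 14, 29 and 0 counts. They appeared in the same 3 OVX+FMT libraries. ASV_77 was also in 3 OVX and 2 Sham libraries. Its mean share was 0.670% ± 1.14 in OVX and 0.208% ± 0.220 in OVX+FMT. ASV_201, named Anaerobacterium chartisolvens, had 73, 0, 0, 3 and 4 counts, and ASV_469, named Acetivibrio alkalicellulosi, had 6, 0, 4, 5 and 19.

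Of the 18, 13 were found in OVX, 11 in Sham and 10 in OVX+PBS, and 3 were found in none of the other 15 libraries of the series. ASV_216, named Bifidobacterium pseudolongum subsp. globosum, had 59, 19, 66, 0 and 0 counts, at least 7.08-fold higher than in OVX+GEX (3.57-fold without library 3), and was not tested in the fit because too few libraries held it. ASV_481, named Duncaniella dubosii, had 22, 0, 11, 11 and 0 counts. ASV_718, named Pseudoclostridium thermosuccinogenes, had 0, 10, 6, 4 and 0 counts. These 3 were the ASVs of OVX+FMT that recurred in its libraries and were seen in no other group.

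On the other side, ASV_54, named Kineothrix alysoides, was the single ASV that passed the threshold. It had 44, 309, 15, 9 and 4 counts in OVX+GEX, a share of 0.765% ± 1.31, and 0 in each OVX+FMT library. All OVX+GEX libraries lay above all OVX+FMT libraries, although library 5 held no more than 4 counts. Library 2, with 3.10%, carried most of its counts. ASV_54 was at least 32.3-fold higher in OVX+GEX against the floor, or at least 7.66-fold without library 2 (edgeR adjusted p = 0.0323, and 0.0009 to 0.2005 over the alternatives). The call was lost without any 1 of the 5 OVX+FMT libraries, where the adjusted p was 0.090 to 0.149, and without OVX+GEX library 2 (0.2005) or 5 (0.072). It was also lost with DESeq2 size factors (0.064) and with at least 10 counts required in the filter (0.082). ASV_54 had 76, 52, 109, 31 and 28 counts in Sham, 75, 3, 59, 0 and 0 in OVX+PBS and 0, 0, 0, 15 and 0 in OVX. It was thus found in every Sham and OVX+GEX library and in 1 of 5 OVX libraries.

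ASV_48, ASV_59 and ASV_57 were named after [Clostridium] scindens, a species known for removing a hydroxyl group from primary bile acids. They had 32, 106, 24, 0 and 0 counts, 24, 109, 28, 0 and 0 counts, and 28, 94, 22, 0 and 0 counts in OVX+GEX libraries 1 to 5, and 0 in OVX+FMT. They appeared in the same libraries at like counts and need not be independent. Each was at least 12.3-fold higher in OVX+GEX, with edgeR adjusted p-values of 0.0611, 0.0831 and 0.0621 that miss the threshold. Without OVX+GEX library 2, the bounds for ASV_48, ASV_59 and ASV_57 were 6.03-fold, 5.71-fold and 5.39-fold. ASV_48 was in 5 Sham, 3 OVX and 3 OVX+PBS libraries, so that OVX+FMT was the one group of the 5 without it.

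ASV_121, named Ihubacter massiliensis, a genus of the list of trimethylamine-forming genera, had 16, 60, 22, 0 and 0 counts in OVX+GEX and was at least 8.44-fold higher there, or 4.20-fold without library 2 (edgeR adjusted p = 0.100). ASV_237, ASV_311 and ASV_323, named after [Clostridium] polysaccharolyticum, were found in OVX+GEX libraries 1, 2 and 3 and, outside the treated groups, in 2 OVX libraries. ASV_244 and ASV_330, named Acetivibrio ethanolgignens, had 15, 13, 0, 39 and 0 counts and 10, 8, 0, 32 and 0 counts. ASV_212, of Schaedlerella, had 10, 21, 8, 0 and 0. Of the 12, 10 were found in OVX, 6 in Sham and 5 in OVX+PBS. The exception was ASV_259, named Solibaculum mannosilyticum, with 33, 34, 39, 4 and 0 counts in OVX+GEX and 0 in the 20 other libraries, at least 9.60-fold higher than in OVX+FMT.

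**Figure D3:**
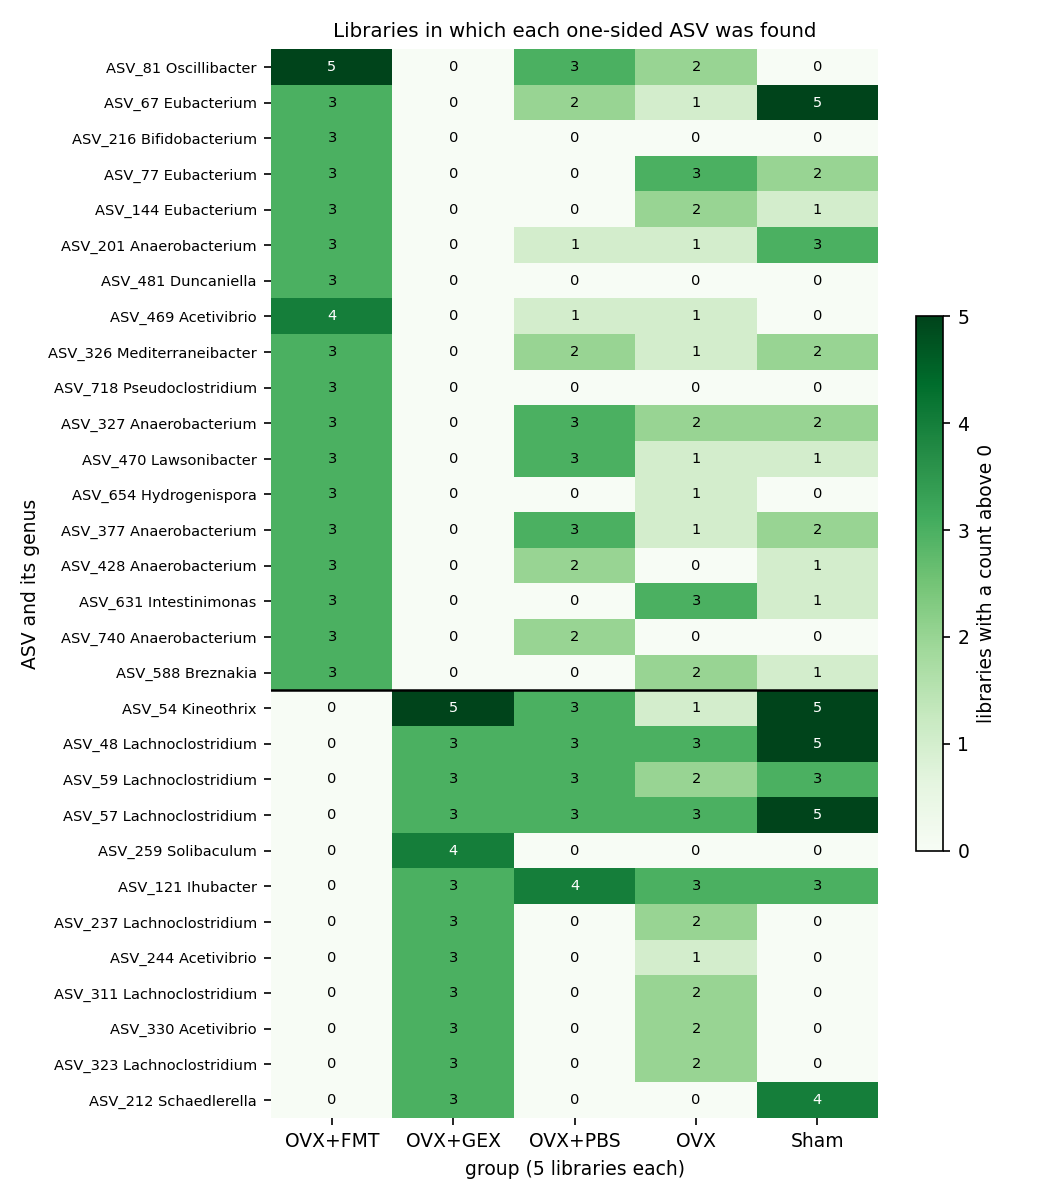
Number of libraries (of 5 per group, digits and colour) in which each of the 30 one-sided ASVs was found, with the 18 special to OVX+FMT above the line and the 12 special to OVX+GEX below it. ASV_216, ASV_481, ASV_718 and ASV_259 have 0 in all 3 other groups, and ASV_54 reaches 5 in OVX+GEX and Sham.

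Across all ASVs, 1 of 379 tested (0.264%) passed, which was ASV_54. An unadjusted edgeR p under 0.05 was reached by 76 (20.1%), 43 higher in OVX+FMT (11.3%) and 33 higher in OVX+GEX (8.71%). Of these, 23 and 14 passed the filter on low counts only through the group where they were higher. The number and its balance depend on the method: there were 10 and 12 with DESeq2, 17 and 19 with limma, 19 and 18 with a replicate block, 3 and 2 with only the 10 libraries, 21 and 19 with at least 10 counts required, 77 and 125 without a filter, and 31 and 40 without OVX+FMT library 4. In 3 of 379 ASVs (0.792%) the groups did not overlap, namely ASV_54, ASV_81 and ASV_133, the last chosen after its values were seen. ASV_133, named Adlercreutzia equolifaciens after a bacterium that turns daidzein into equol, had 18, 54, 34, 11 and 12 counts in OVX+GEX and 6, 0, 0, 2 and 2 in OVX+FMT (edgeR adjusted p = 0.218). It also had 31, 53, 25, 0 and 0 counts in OVX+PBS, 0, 0, 6, 8 and 0 in OVX and 0, 0, 3, 3 and 0 in Sham. Its mean share was 0.180% ± 0.201 in OVX+PBS and 0.267% ± 0.188 in OVX+GEX. Several ASVs with a low unadjusted p rested on 1 or 2 libraries. ASV_66, of Oscillibacter, had 294 counts in OVX+FMT library 5 and 0 in the other 9 treated libraries. Outside the treated groups it was found in 5 Sham, 4 OVX and 2 OVX+PBS libraries.

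Within the most abundant genera, the mean ASV profiles of the groups were nearly the same in some and overlapped little in others. The overlap of the mean ASV profiles, where 100% means the same makeup, was 98.7% in Gluceribacter, 98.3% in Ligilactobacillus, 80.4% in Duncaniella, 75.7% in Ruminococcus and 69.5% in Anaerobacterium. It was 63.5% in Acetivibrio, 45.9% in Kineothrix, 33.8% in Eubacterium and 27.2% in Lachnoclostridium. The number of ASVs in the table differed as well, from 4 for Gluceribacter to 108 for Lachnoclostridium and 162 for Anaerobacterium, and its part in these overlaps was not tested. Each library weighs the same in a mean profile, also where it held few counts of the genus. Lachnoclostridium was at most 0.474% of any OVX+FMT library but 4. Libraries of 1 group differed too: its ASV_86 was 66.7% of the genus in OVX+FMT library 5 and 0% in libraries 1 to 3. Ligilactobacillus had 10 ASVs in the table, 9 of them found in both groups, and its leading ASV, ASV_2, was 19.1% ± 0.578 of the genus in OVX+FMT and 18.4% ± 1.01 in OVX+GEX. Ruminococcus was led in both groups by ASV_4, named Ruminococcus callidus, at 53.8% ± 17.2 and 47.7% ± 16.9 of the genus. Lachnoclostridium had 18 ASVs in both groups, 12 in OVX+FMT only and 24 in OVX+GEX only. Of 9 genera tested for a difference in ASV makeup, none passed. The largest R2 was that of Duncaniella, 0.304 (exact permutation p = 0.0635, adjusted p = 0.5 over 9 genera), and it was 0.493 and 0.495 without OVX+FMT library 5 and without OVX+GEX library 5 (adjusted p = 0.143 and 0.179, exact permutation).

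Duncaniella had 18 ASVs in both groups, 5 in OVX+FMT only and 0 in OVX+GEX only, where OVX+FMT libraries 1 and 5 were also the deepest of the 10. Those named Duncaniella dubosii made up 63.1%, 68.1%, 63.8%, 60.7% and 42.1% of the genus in OVX+FMT and 49.0%, 42.2%, 44.1%, 39.6% and 48.8% in OVX+GEX, and the remainder was named Duncaniella freteri. OVX+FMT libraries 1 to 4 lay above all OVX+GEX libraries and library 5 lay among them. ASV_1, of Duncaniella freteri, was 17.2%, 14.1%, 15.5%, 19.5% and 23.3% of the genus in OVX+FMT and 29.7%, 35.3%, 33.5%, 40.3% and 16.9% in OVX+GEX (exact permutation p = 0.0317, adjusted p = 0.524). Its mean was 28.2% ± 12.4 in OVX+PBS, 21.4% ± 6.89 in OVX and 28.6% ± 4.26 in Sham.

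In 4 of the 99 ASVs compared as a share of their genus (4.04%), the groups did not overlap. ASV_27, of Duncaniella dubosii, was 4.32%, 6.36%, 5.23%, 4.87% and 4.65% of Duncaniella in OVX+FMT and 2.47%, 0%, 1.99%, 2.56% and 1.67% in OVX+GEX. ASV_29, of the same species, was 4.60% ± 0.417 and 2.60% ± 0.893. ASV_27 and ASV_29 had like counts in the OVX+FMT libraries, such as 294 and 299 in library 1, and need not be independent. Outside the treated groups, OVX library 4 had the highest shares of both, at 8.08% and 6.19%. All other libraries of those groups lay below every OVX+FMT library in both ASVs. The means in OVX+PBS, OVX and Sham were 1.87%, 3.35% and 2.82% for ASV_27 and 2.16%, 2.76% and 2.45% for ASV_29. The other ASVs without overlap were ASV_90, at 3.35% ± 1.27 and 0.901% ± 0.902 of Anaerobacterium, and ASV_54, at 0% and 10.1% ± 14.6 of Kineothrix. Groups of 5 that do not overlap always give an exact permutation p of 0.00794, the smallest the splits allow. This p therefore restates how the 4 were picked and is no further evidence. The adjusted p of each was 0.196 over the 99. ASV_1, ASV_21, ASV_27, ASV_29 and ASV_90 were singled out after their values were seen.

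ASV_21, of Duncaniella freteri, followed single libraries of several groups. It had 1169 counts in OVX+FMT library 5, 711 in OVX+GEX library 5, 456 in OVX+PBS library 4 and 625 in OVX+PBS library 5, and 0 in the other 21 libraries. It was 11.4% to 16.9% of Duncaniella where it was found. OVX+FMT library 5 and OVX+GEX library 5 are the mutual nearest neighbours described above.

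**Figure D4:**
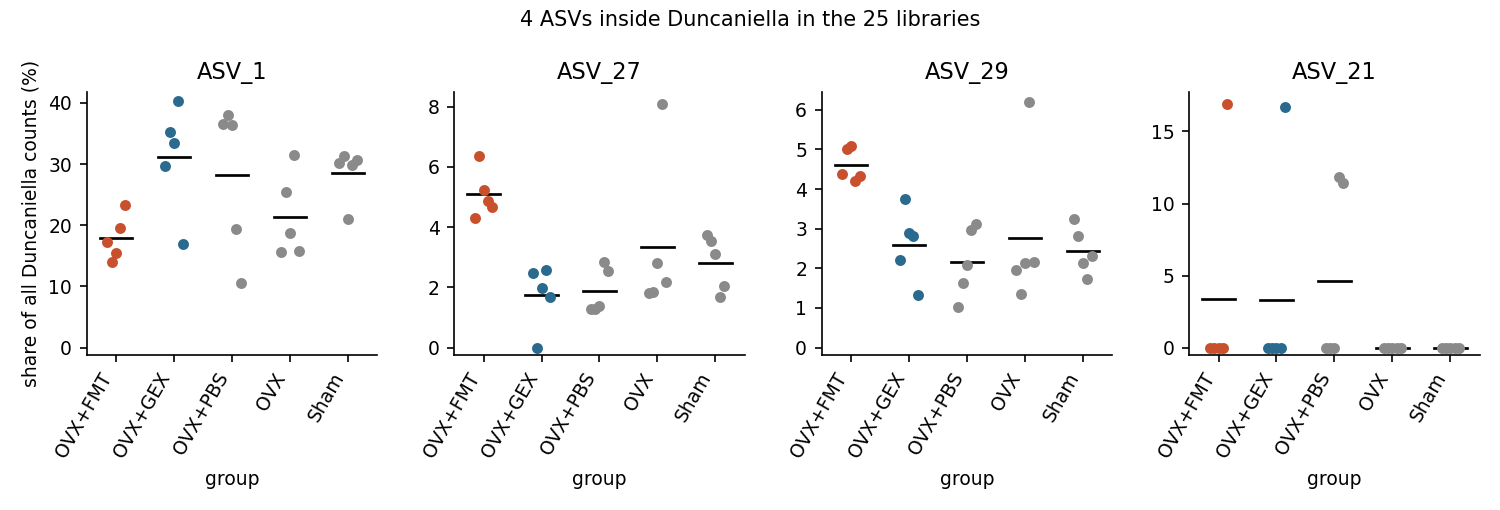
Share of all Duncaniella counts (%, vertical axis) taken by ASV_1, ASV_27, ASV_29 and ASV_21, with 1 point per library in each of the 5 groups and the group mean as a bar. For ASV_27 and ASV_29 every OVX+FMT point lies above every OVX+GEX point, while ASV_21 is at 0 in 21 of 25 libraries.

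Taxon lists were read against all 81 genera, of which 44 were higher and 37 lower in OVX+FMT, with a median log2 fold change of 0.17. This background turned to 24 higher and 34 lower, with a median of -0.14, when the filter required at least 10 counts, and its median ran from 0.03 to 0.32 with 1 library left out. No list had a genus past the threshold, and some genera stand in more than 1 list. Lachnospiraceae, a family of many butyrate producers, held 6.17%, 9.78%, 7.38%, 37.3% and 3.29% of OVX+FMT libraries and 20.4%, 32.1%, 13.6%, 14.7% and 9.41% of OVX+GEX libraries. Apart from library 4, the OVX+FMT libraries lay below all OVX+GEX libraries except library 5, which was lower than OVX+FMT library 2. The mean was 12.8% ± 13.9 in OVX+FMT, or 6.65% ± 2.70 without library 4, and 18.04% ± 8.79 in OVX+GEX. Of 23 genera tested, 7 were higher in OVX+FMT, a number that ran from 6 to 13 over the scalings. Butyrate producers held 2.53%, 5.55%, 5.42%, 19.7% and 5.15% in OVX+FMT and 14.9%, 10.7%, 6.61%, 10.9% and 8.003% in OVX+GEX, where 4 of 11 genera were higher in OVX+FMT. Without library 4 the OVX+FMT mean of the list was 4.66% ± 1.43 in place of 7.67% ± 6.85, against 10.2% ± 3.18 in OVX+GEX. OVX+FMT library 4 was left out after its values were seen, and no OVX+GEX library was left out beside it. This widens the gap on 1 side only. In Lachnospiraceae, OVX+GEX library 2, at 32.1%, was likewise the highest of its group.

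Genera with members known to form trimethylamine held 0.545%, 1.12%, 1.02%, 4.95% and 0.410% in OVX+FMT and 2.11%, 7.22%, 1.78%, 7.37% and 0.436% in OVX+GEX. OVX+FMT library 4 was the highest of its group and OVX+GEX library 5 the lowest of its own, and the groups overlapped through both. The means were 1.61% ± 1.89, or 0.774% ± 0.349 without OVX+FMT library 4, and 3.78% ± 3.27. The OVX+GEX mean kept its highest libraries, 2 and 4, so leaving out a library on 1 side only widens the gap. All 6 genera tested, Clostridium, Enterocloster, Hungatella, Ihubacter, Lacrimispora and Shigella, had a fold change below 0, with a median of -1.13, and 0 to 1 of the 6 were higher in OVX+FMT over the scalings. None passed the threshold. Ihubacter was at 0.387% ± 0.245 and 0.765% ± 0.424, and Shigella in OVX+GEX library 4 made up most of that library's share of the list. Whether the bacteria counted here carry the genes cannot be read from 16S sequences.

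**Figure D5:**
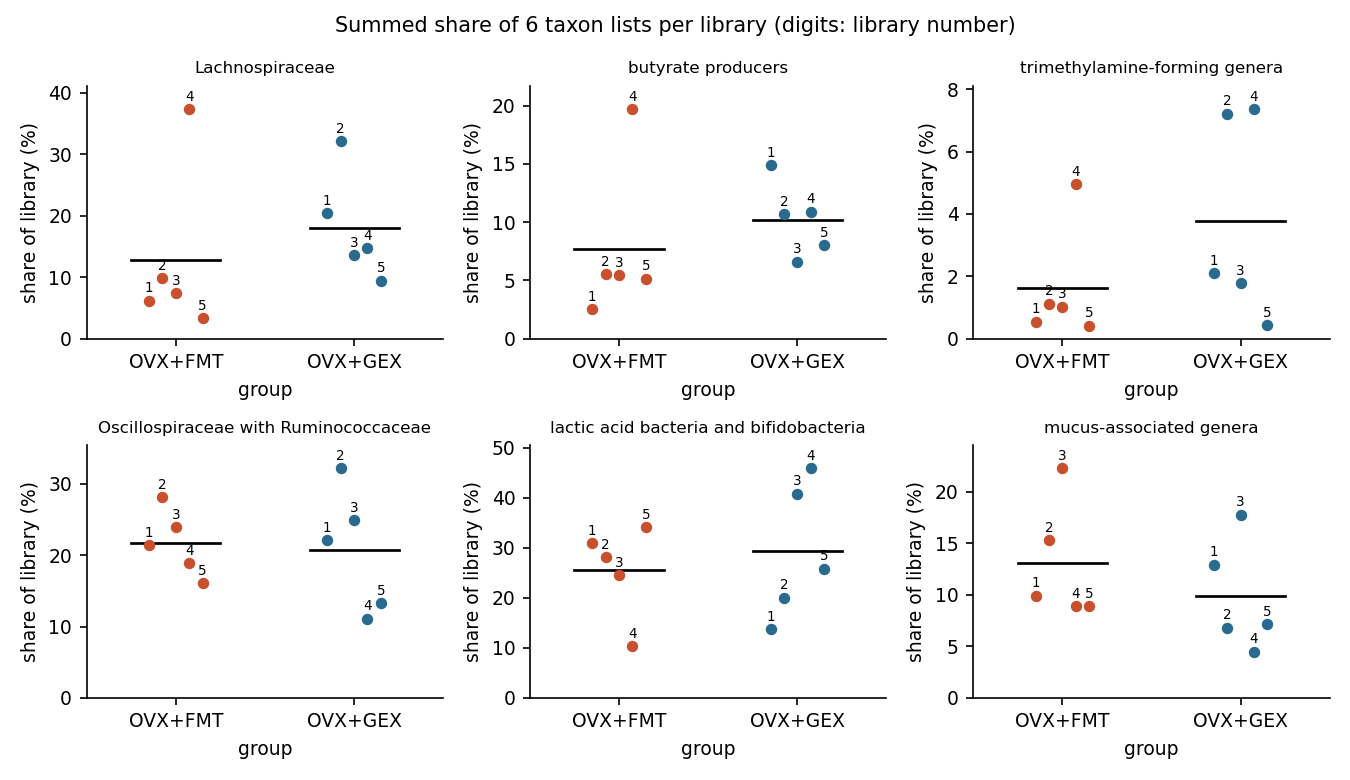
Summed share of the library's counts (%) for 6 of the taxon lists, with 1 point per library, the library number as a digit and the group mean as a bar. OVX+FMT library 4 lies far above the other OVX+FMT libraries for Lachnospiraceae (37.3%), butyrate producers (19.7%) and trimethylamine-forming genera (4.95%), and is the lowest of the 10 for lactic acid bacteria.

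The remaining lists also had no genus past the threshold. Oscillospiraceae with Ruminococcaceae held 21.7% ± 4.63 and 20.7% ± 8.65, with 13 of 18 genera higher in OVX+FMT under every scaling and a median log2 fold change of 0.57, or 0.44 with genera absent from 1 group at their bound. Lactic acid bacteria with bifidobacteria held 25.6% ± 9.28 and 29.3% ± 13.7, with 3 of 4 genera, Bifidobacterium among them, higher in OVX+FMT although their summed share was lower, since Ligilactobacillus made up nearly all of it. Mucus-associated genera held 13.1% ± 5.80 and 9.84% ± 5.43, and plant fibre degraders 17.8% ± 4.94 and 17.5% ± 6.93. Acetogens held 1.15% ± 0.824 and 1.17% ± 0.575, Erysipelotrichaceae 1.14% ± 0.556 and 1.04% ± 0.325, and Enterobacterales 0.0272% ± 0.039 and 1.09% ± 2.35, the latter 0.0329% ± 0.0658 (SD, n = 4) without OVX+GEX library 4. Adlercreutzia, the tested genus of the equol-forming list, was at 0.973% ± 0.380 and 0.976% ± 0.515, so that ASV_133 differed more than its genus. Muribaculaceae consisted of Duncaniella alone.

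Each treatment was last set against a control of its own, OVX+FMT against OVX+PBS and OVX+GEX against OVX, and the differences were compared. This choice of controls is not stated by the labels. No genus passed the threshold in either contrast. The difference of the differences passed in 0 of 81 genera (0.0%), with 9 (11.1%) at an unadjusted edgeR p under 0.05, 0 called by DESeq2 or limma, and a smallest adjusted p of 0.107. The median log2 difference over all genera was 0.79, which depends on the setting: it was 0.50 to 1.02 over the scalings, 0.37 without a filter, 0.18 with limma, 0.26 without OVX+FMT library 4 and 0.05 with at least 10 counts required in the filter. Gluceribacter had a log2 fold change of -1.11 from OVX+PBS to OVX+FMT and 0.55 from OVX to OVX+GEX, a difference of -1.66 (SE 0.70, edgeR adjusted p = 0.288). Ihubacter had a difference of -1.97 (SE 0.785, edgeR adjusted p = 0.288). The other 7 of the 9 genera were Shigella, Haploplasma, Aminipila, Rossellomorea, Lactococcus, Faecalicatena and Breznakia.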

How the data were processed

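The table of ASV counts was made by the authors and deposited as whole-number counts per library with a taxonomy, per the file headers. Subread is named in the submitters' processing notes without a version. No source used here gives the primers, denoiser or database. Of the counts above 0, 0 were 1 and 464 were 2. Columns were matched to samples by name, and 5 columns spelled OVX+GES were taken as the samples titled OVX+GEX. A single ASV without a phylum (0.0043% of counts) stayed in the totals.

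Counts per genus and per ASV were tested with edgeR 4.0.16 (R 4.3.3; TMM, quasi-likelihood F test) in 1 fit of all 25 libraries, keeping features that 5 or more libraries held at 3 or more counts, which left 81 genera and 379 ASVs. Adjusted p-values are Benjamini-Hochberg values with a threshold of 0.05. Community, phylum and within-genus measures were compared by exact permutation over 252 splits, whose smallest p is 0.00794. The test was two-sided for differences of means and one-sided for R2. Nothing in the labels says that libraries come from separate cages, so p-values cover only the spread among libraries. Intervals and floors (3 counts) cover counting error only. The edgeR test was run on simulated counts with known changes, and the permutation and Fisher tests were not.

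The 10 libraries and 15 taxon lists were chosen with earlier results of these data known. The lists of sulfate reducers, reagent contaminants and plant or host reads matched 0 ASVs. This holds only for the names in the lists. Desulfosporosinus, for example, had 2 counts in OVX+GEX library 1 and stood in none of them. The taxa named were phyla with a mean of at least 1%, the 10 genera of highest mean share, genera and ASVs past the threshold (up to 10 genera and 8 ASVs each way, filled with those at an unadjusted p under 0.05), special ASVs (up to 8 each way), list members past the threshold, and ASVs in all 10 libraries; any other was chosen after its values were seen. Alternatives were TMMwsp, DESeq2 size factors, plain totals, DESeq2 1.42.0, limma 3.58.1 on centred log-ratios (0.5 added), other filters, distances, depths and presence rules, only the 10 libraries, a replicate block and each library left out. Leaving out libraries for the makeup of a genus, for fold bounds and for taxon lists was an alternative chosen after seeing the data. So were the expected numbers of ASVs at equal depth. For the lists, the library left out was OVX+FMT library 4, and for Enterobacterales OVX+GEX library 4.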

Additional observations from a re-analysis of the deposited data

Results flagged for a closer look

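In 13 of 74 groups of 5 values looked at, the highest library lay apart from the other 4 by more than Dixon's 95% critical value for 5 samples. For normally distributed values chance gives such a gap at either end in about 1 in 20 groups, and at the high end alone in fewer. These rates need not hold for skewed shares. In 4 of the 13, the other libraries were all at 0, so that any count would have met the rule. OVX+FMT library 4 supplied 9 of the 13. In it Lachnospiraceae held 37.3% where the next library held 9.78%, butyrate producers 19.7% (next 5.55%) and trimethylamine-forming genera 4.95% (next 1.12%). Of the genera, Kineothrix held 10.3% (next 1.43%), Eubacterium 7.36% (next 2.30%), Lachnoclostridium 5.56% (next 0.474%), Anaerotaenia 0.316%, Marvinbryantia 0.211% and [Bacteroides] 0.137%, the last 3 with 0 in the other OVX+FMT libraries. These measures are not independent, since Kineothrix, Lachnoclostridium and Eubacterium stand in the lists as well.

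OVX+GEX library 4 stood apart in Shigella, 4.93% where the next library held 0.132%, and with it in Enterobacterales, 5.30% (next 0.132%). OVX+GEX library 2 stood apart in Acetivibrio, 18.001% (next 4.35%). OVX+GEX library 5 stood apart in Bifidobacterium, 0.0464% or 5 counts, with 0 in the other 4. What sets these libraries apart was not tested.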

How the results depend on the processing

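ASVs past the threshold numbered 1, and 5 with DESeq2, 4 without a filter, 2 with limma, 2 with only the 10 libraries, 0 with DESeq2 size factors and 0 with a count of at least 10 required. Leaving out 1 library at a time gave 0 to 3 ASVs and 0 to 3 genera. The difference of differences gave 1 genus without a filter, Shigella. Special ASVs numbered 2 and 2 at 4 of 5 libraries and 68 and 49, with 163 shared, at 2 of 5. Leaving out 1 library gave 5 to 27 special to OVX+FMT (5 without OVX+FMT library 1), 2 to 18 special to OVX+GEX (2 without OVX+GEX library 1 or 2) and 71 to 84 shared. The minimum of 3 libraries was kept, so the rule became 3 of 4 in the shortened group. Shared numbers could thus not rise. Special numbers could not rise without a library of their own group, nor fall without a library of the other group. The Shannon difference of -0.002 became 0.041 from genus shares, and -0.161 to 0.101 with 1 library left out, and the richness difference ran from -1.14 to 31.1. With 1 library left out, the log2 fold change of Anaerotaenia ran from 0.00 (without OVX+FMT library 4) to 6.11, that of ASV_66 from 0.00 (without OVX+FMT library 5) to 8.85, and that of Shigella from -6.53 to 0.58 (without OVX+GEX library 4). Higher and lower ASVs numbered 187 and 181, but 222 and 146 under TMMwsp. Same-numbered libraries correlated at -0.07 to 0.35, and 1 of 5 numbers correlated best with its own, so the numbers were not taken to pair libraries. With a replicate block, 0 genera and 1 ASV passed, and 37 ASVs rather than 76 had an unadjusted p under 0.05.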
